A study of Mus musculus with 4 samples.

Results

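The Ly6 surface antigens described here are 6 genes, Ly6a, Ly6c1, Ly6c2, Ly6d, Ly6e and Ly6i, picked by name from a table of 49490 mouse genes. All 6 had reads in each of the 4 libraries and passed the filter on low values. The libraries hold polyadenylated RNA of CD8+ T cells taken from spleens and lymph nodes and cultured under activating conditions, which the study used to look for genes under the control of the transcription factor IRF8. The 2 WT-labelled libraries carry the floxed allele (Irf8fl/fl), and the 2 labelled Irf8 knockout are given as Irf8-/-. The sources used here do not give the recombinase, the stimulus, the time in culture or the age of the mice. Nor do they say that the paired libraries stem from different animals or cultures, so a p-value here covers only library-to-library spread, which may be technical.

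Ly6 proteins are small and cysteine-rich, fold into a domain shared with the urokinase receptor, and are held in the outer leaflet of the membrane by a glycosylphosphatidylinositol (GPI) lipid anchor. Ly6C, the antigen encoded by Ly6c1 and Ly6c2, marks inflammatory monocytes and also effector and memory CD8+ T cells. Ly6a encodes Sca-1, known from haematopoietic stem cells and raised on activated T cells. Ly6e, once called thymic shared antigen 1, is inducible by interferon, as are Ly6a and the Ly6c genes. Ly6d marks lymphoid progenitors biased to the B lineage and is found in plasmacytoid dendritic cells. Ly6i is an antigen described on myeloid cells.

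The libraries held 58899365 to 59724952 reads, and those of the targeted gene, Irf8, were higher in the libraries labelled knockout. Counts per gene do not show which exons were read, and the reason was not tested. Irf8 stood at normalized counts of 6364 and 6081 in the WT-labelled libraries against 89508 and 90222 in the knockout-labelled pair, 14.4-fold higher in the latter. All directions below therefore follow the labels, as knockout-labelled relative to WT-labelled. The summed level of 16 plasmacytoid dendritic cell markers was 19026 to 19101 in the WT-labelled libraries and 308993 to 309702 in the others, and 16 of the 16 rose. Among 20 T cell markers, 0 rose and 18 fell, with sums of 985701 to 993106 against 708753 to 719578, and the defining CD3 genes were abundant in each library. Of 13 conventional dendritic cell markers 12 rose, of 12 neutrophil markers 11 (sums of 251 to 286 against 3559 to 3700), and of 11 B cell markers 5. Of 15 macrophage and monocyte markers 2 rose and 9 fell, and of 6 NK cell markers 2 fell. Over all genes tested, 19.9% were called higher and 13.4% lower. The neutrophil genes Elane, Mpo and Camp and the B lineage genes Ebf1 and Igll1 had 0 reads in the WT-labelled libraries. The macrophage gene Marco had 0 in the knockout-labelled pair and 11 and 0 in the WT-labelled libraries, and was not tested.

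The 6 genes lie within 350 kb of chromosome 15 (GRCm38, the assembly of the mm10 build). Ly6d (ENSMUSG00000034634.7, chr15:74762056-74763620, minus strand) lies apart at the low end. Then follow Ly6e (ENSMUSG00000022587.14, chr15:74955051-74959905, the only one of the 6 on the plus strand), Ly6i (ENSMUSG00000022586.11, chr15:74979534-74983430) and Ly6a (ENSMUSG00000075602.10, chr15:74994877-74998031). Ly6c1 (ENSMUSG00000079018.10, chr15:75044018-75048830) and Ly6c2 (ENSMUSG00000022584.14, chr15:75108158-75111970) close the set. The annotation places no other gene over any of them.

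How far reads can be told apart between these copies bears on each value below, so the start of the coding sequence is shown for the closest pairs. In the annotated reference transcripts, coding bases 1 to 120 of Ly6c1 and Ly6c2 differ at 6 positions, in capitals here, and the whole coding sequences of 396 bases are 97.7% identical, with 9 substitutions.
Ly6c1: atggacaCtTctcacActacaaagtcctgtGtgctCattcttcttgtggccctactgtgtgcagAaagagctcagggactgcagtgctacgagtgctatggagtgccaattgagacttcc
Ly6c2: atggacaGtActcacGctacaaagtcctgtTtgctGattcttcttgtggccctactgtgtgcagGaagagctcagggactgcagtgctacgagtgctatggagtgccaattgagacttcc
Ly6a and Ly6i, 86.4% identical over 405 coding bases, also differ at 6 of the first 120, again in capitals.
Ly6a: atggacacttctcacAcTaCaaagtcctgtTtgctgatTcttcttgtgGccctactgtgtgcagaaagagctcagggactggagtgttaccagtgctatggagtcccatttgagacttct
Ly6i: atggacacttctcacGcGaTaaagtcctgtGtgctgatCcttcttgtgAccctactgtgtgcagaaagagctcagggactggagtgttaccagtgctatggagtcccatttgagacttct

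Counted over all annotated transcripts, 32.8% of the windows of 50 bases in Ly6c1 occur in a transcript of another gene, and 21.5% of all its windows occur in Ly6c2, its main partner. The share was 19.0% for Ly6a, whose closest partner by this measure was Ly6c1, and 4.76% for Ly6i. For Ly6c2 it was 14.5%, or 31.2% when only its protein-coding transcripts were counted, because an annotated retained intron lengthens the gene. With windows of 100 bases the shares dropped to 10.1% for Ly6c1, 5.81% for Ly6c2 and 1.45% for Ly6a, and 0 windows of Ly6i were shared. Ly6d and Ly6e shared 0 windows of either length, and their coding sequences were 47.1% to 53.8% identical to those of the other members. Values of Ly6c1, Ly6c2, Ly6a and Ly6i are therefore uncertain to the extent that reads in shared stretches were split among the copies.

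Ly6d was scarce in the WT-labelled libraries and abundant in the knockout-labelled pair, and the other members moved far less. Of the 6 genes, Ly6d, Ly6e and Ly6i were higher in the knockout-labelled libraries, Ly6c1 and Ly6c2 were lower, and Ly6a did not pass the test. The median of the 6 log2 fold changes was 0.12, beside 0.02 over all genes tested. The 3 higher calls stand beside 19.9% of all genes called higher, and the 2 lower calls beside 13.4% called lower. Groups were free of overlap for 6 of the 6 genes, and likewise for 68.8% of all genes tested. The test was limma on log2(normalized count + 1) over 18378 genes with Benjamini-Hochberg adjustment, while exact permutation of so few libraries stops at a two-sided p of 1 in 3.

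**Figure D1:**
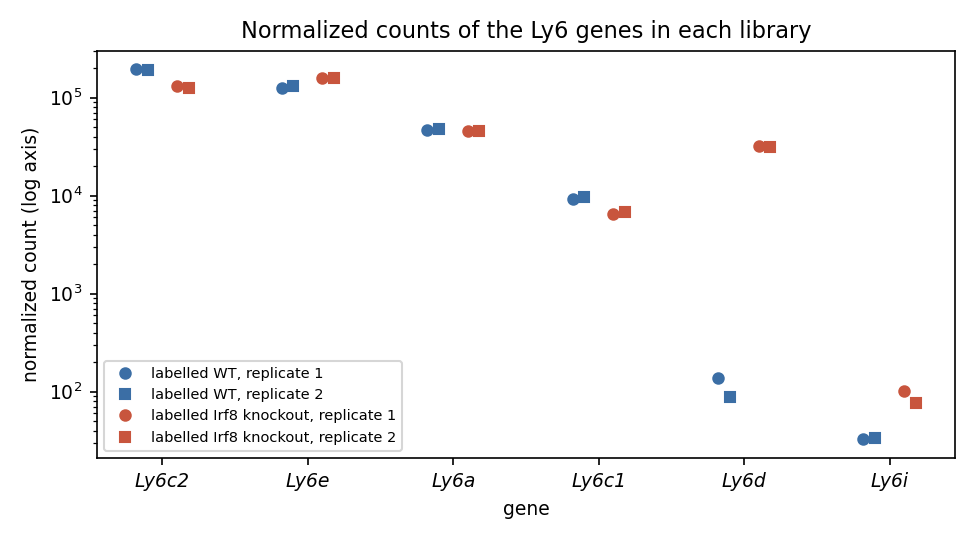
Normalized counts (log axis) of the 6 Ly6 genes in each of the 4 libraries, with blue for WT-labelled libraries, red for libraries labelled Irf8 knockout, circles for replicate 1 and squares for replicate 2. Ly6d sits at 138 and 88.8 in the WT-labelled libraries and at 31997 and 31458 in the others, while the other genes shift by less than 3-fold.

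Ly6d, the lymphoid progenitor antigen, stood at normalized counts of 138 and 88.8 in the WT-labelled libraries and 31997 and 31458 in the knockout-labelled pair. The low pair rests on 136 and 87 reads and the high pair on 32656 and 32319, so the spread is wide only where the gene is low. The group means were 114 ± 35.1 and 31728 ± 381 (SD, n = 2 each), a 279-fold difference, with a log2 fold change of 8.15 (standard error 0.20) and a limma adjusted p of 8.85e-06. By log2 fold change it ranked 43 of the 18378 genes tested. It was the one member called with a log2 fold change above 4, as 3.17% of all genes were, and above 8, as 0.239% were. The estimate ran from 7.83 without WT-labelled replicate 2 to 8.70 with libraries centred on T cell markers. The authors' deposited table puts Ly6d at -8.13 (log2 of WT relative to knockout). The plasmacytoid dendritic cell markers given above rose beside it, among them Siglech, a receptor of those cells, 418-fold. In bulk RNA more cells of a type and more RNA per cell cannot be told apart, and the part of those cells in the Ly6d value was not tested.

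The genes whose 4-library profile lay nearest to that of Ly6d were Fads3, Lifr and Spib, out of 10896 candidates with a mean of at least 100. Here and below, candidates were genes tested, without predicted gene models, clone names, antigen receptor segments and names turned into dates. Nearness was the Euclidean distance between log2 profiles centred on their own means, and with 4 libraries it mostly ranks the size of the group difference. Spib, a transcription factor of plasmacytoid dendritic cells, had 72.3 and 33.7 in the WT-labelled libraries against 16205 and 16466. Its profile was 0.370 from that of Ly6d. Fads3, a fatty acid desaturase family gene, was nearest at 0.203, with 14.2 and 7.15 against 3004 and 3050. Lifr, the receptor of leukaemia inhibitory factor, lay at 0.260 with 31.5 and 25.5 against 8936 and 8925.

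The Ly6C genes fell together by the deposited scaling and by median centring, but not when libraries were centred on T cell markers. Ly6c2 stood at normalized counts of 195311 and 191347 in the WT-labelled libraries and 131585 and 125727 in the knockout-labelled pair. Both knockout-labelled libraries lay below both labelled WT, and the means were 193329 ± 2803 and 128656 ± 4143 (SD, n = 2 each). Ly6c2 fell by 0.59 on the log2 scale (standard error 0.03, limma adjusted p = 2.90e-05). Ly6c1 stood at 9356 and 9615 against 6507 and 6767, with means of 9485 ± 183 and 6637 ± 184 (SD, n = 2 each). It fell by 0.52 on the log2 scale (standard error 0.04, limma adjusted p = 2.52e-04). Of 20 T cell markers 18 fell beside them, as did 9 of 15 macrophage and monocyte markers, while 2 of those 15 rose. Of 6 NK cell markers 2 fell and 0 rose. Lyz2 fell by 0.54 and Ccr2 by 0.44 on the log2 scale, and F13a1 by 1.59. The 2 that rose were Cd68, by 2.62, and Vcan, by 1.29, so these markers did not move as one. Which cells carried the Ly6C change was not tested. Cd3e, a subunit of the CD3 complex, went from 90985 and 86234 to 54314 and 55319 and fell by 0.69 on the log2 scale.

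Within a library, Ly6c1 reads per kb of exon amounted to 0.0783 and 0.0821 of those of Ly6c2 in the WT-labelled libraries and to 0.0808 and 0.0879 in the knockout-labelled pair. These ratios do not depend on how libraries are scaled, and their ranges overlapped between the groups. As 21.5% of the 50-base windows of Ly6c1 occur in Ly6c2, the more abundant gene, the 2 values may not be independent. How far shared reads set the ratio was not tested. When each library was centred on the mean log2 level of its T cell markers, the log2 fold change of Ly6c2 was -0.03 (limma adjusted p = 0.356) and that of Ly6c1 turned to 0.04 (adjusted p = 0.473). Relative to the mean of these T cell markers, then, neither Ly6C gene passed the test. The markers did not move as one, with log2 fold changes from -0.85 for Cd6 to -0.01 for Trac, so this centring depends on the markers chosen. That centring raised the median of all genes by 0.55 and called 63.8% of genes higher and 0.876% lower. Over 14 alternatives the limma, edgeR or DESeq2 adjusted p of Ly6c2 ran from 5.61e-51 to 0.356 and that of Ly6c1 from 3.31e-20 to 0.473.

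The profiles nearest to Ly6c2 were those of Grap2, Slc39a4 and Myo6, at distances of 0.0170, 0.0195 and 0.0249. Grap2, an adaptor of T cell receptor signalling, had 9334 and 9032 against 6223 and 6012. Slc39a4 had 2504 and 2462 against 1717 and 1618, and Myo6 had 518 and 509 against 355 and 331. Nearest to Ly6c1 were Trnau1ap, Kcnn4 and Ndfip1, at 0.0131, 0.0167 and 0.0235. Trnau1ap had 2555 and 2619 against 1763 and 1856. Kcnn4, a calcium-activated potassium channel of activated T cells, had 10845 and 11095 against 7522 and 7926. Ndfip1, an adaptor of ubiquitin ligases that restrains T cell activation, had 14494 and 15075 against 10042 and 10651.

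Promoter sequences of RefSeq (GRCm38.p6) were at hand for 2 of the 6 genes, Ly6c1 and Ly6c2, and are printed because this pair moved together. Each shows the 250 bases before the annotated transcript start on the minus strand, chr15:75048838-75049087 for Ly6c1 and chr15:75111972-75112221 for Ly6c2. Capitals mark the longest run that both hold, 20 bases long, which begins 40 bases before the start of Ly6c1 and 65 bases before that of Ly6c2.
Ly6c1: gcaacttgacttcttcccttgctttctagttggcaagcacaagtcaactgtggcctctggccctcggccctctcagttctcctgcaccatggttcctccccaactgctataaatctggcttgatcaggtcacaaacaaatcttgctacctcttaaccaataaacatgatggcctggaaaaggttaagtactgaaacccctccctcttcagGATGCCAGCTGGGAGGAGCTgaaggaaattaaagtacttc
Ly6c2: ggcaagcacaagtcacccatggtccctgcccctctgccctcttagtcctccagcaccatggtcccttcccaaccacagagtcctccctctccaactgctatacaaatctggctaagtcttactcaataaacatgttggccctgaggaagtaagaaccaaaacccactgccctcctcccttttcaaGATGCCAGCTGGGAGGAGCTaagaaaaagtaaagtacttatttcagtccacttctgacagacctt
Aligned end to end, these windows were 57.7% identical over 284 columns, with 52 substitutions and 68 gap columns. The start of Ly6c2 used here lies further from the shared run, which offsets the windows.

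Both strands of the window from 250 bases before to 50 after the start were searched for letters known from interferon regulatory factors and STAT proteins. The core of an interferon-stimulated response element (GAAA, any 2 bases, GAAA) was in 3.44% of 32851 promoters. The ETS-IRF composite (GGAA, any 2 bases, GAAA), which differs from that core in 1 letter, was in 2.72%, and the STAT element (TTC, any 3 bases, GAA) in 8.30%. The AP-1-IRF composites were in 0.119% (TGANTCA, any 4 bases, GAAA) and 0.125% (GAAA directly before TGANTCA). The Ly6c1 and Ly6c2 promoters held 0 matches to any of the 5, which says only that these letters are not in these windows.

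Ly6e rose slightly by the deposited scaling, and the call depends on the scaling and on having both knockout-labelled libraries. It stood at normalized counts of 125974 and 133101 in the WT-labelled libraries and 158103 and 158860 in the knockout-labelled pair. The pair labelled knockout was tight and above the pair labelled WT, with means of 158482 ± 535 against 129537 ± 5039 (SD, n = 2 each). The ratio was 1.22, with a log2 fold change of 0.29 (standard error 0.03) and a limma adjusted p of 7.73e-04. Centring each library on its median gene turned the value to -0.01 (adjusted p = 0.824), a setting that moved the median of all genes by -0.30. Centring on T cell markers raised it to 0.85 (adjusted p = 7.34e-06). Without knockout-labelled replicate 1 or 2 the log2 fold change of Ly6e was 0.29 and 0.29, and the call was lost with 1 library left in that group. Its nearest profiles were those of Gpr171, Birc2 and Sphk2, at 0.0114, 0.0192 and 0.0195. Gpr171, a G protein-coupled receptor, had 11086 and 11689 against 13769 and 13906.

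Ly6a, which encodes Sca-1, had 47050 and 47999 in the WT-labelled libraries and 45861 and 45659 in the knockout-labelled pair. The groups did not overlap, yet the ratio of 0.963 did not pass the test, with a log2 fold change of -0.05 (standard error 0.03) and a limma adjusted p of 0.180. Its direction hung on the scaling, with -0.35 under median centring (adjusted p = 1.76e-04) and 0.50 under T cell marker centring (adjusted p = 2.99e-05). Within a library, which needs no scaling, Ly6e reads per kb were 0.853 and 0.883 of those of Ly6a in the WT-labelled libraries and 1.10 and 1.11 in the knockout-labelled pair. The ratio was higher in both knockout-labelled libraries, while which gene is the more abundant depends on the length used. The nearest profiles to Ly6a were those of Invs, Csnk2a1 and Fech, at 0.00491, 0.00577 and 0.00610, and none of these genes passed the test.

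Ly6i was scarce throughout. It stood at normalized counts of 32.6 and 33.7 in the WT-labelled libraries and 101 and 76.9 in the knockout-labelled pair, from 32, 33, 103 and 79 reads. The groups did not overlap, and the means of 33.1 ± 0.800 and 88.9 ± 17.0 (SD, n = 2 each) differed 2.68-fold. The log2 fold change was 1.38, with a standard error of 0.29 and a limma adjusted p of 0.0124. Without knockout-labelled replicate 1 or 2 the log2 fold change was 1.19 and 1.58, and the call was lost with 1 library left in that group. In the WT-labelled libraries Ly6i reads per kb were 7.22e-04 and 7.32e-04 of those of Ly6a, and in the knockout-labelled pair 0.00229 and 0.00176. The nearest profiles were those of Cul9, Chst14 and Tfrc, at 0.0834, 0.134 and 0.141. Tfrc, the transferrin receptor of dividing cells, had 2534 and 2537 against 7184 and 6269.

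**Figure D2:**
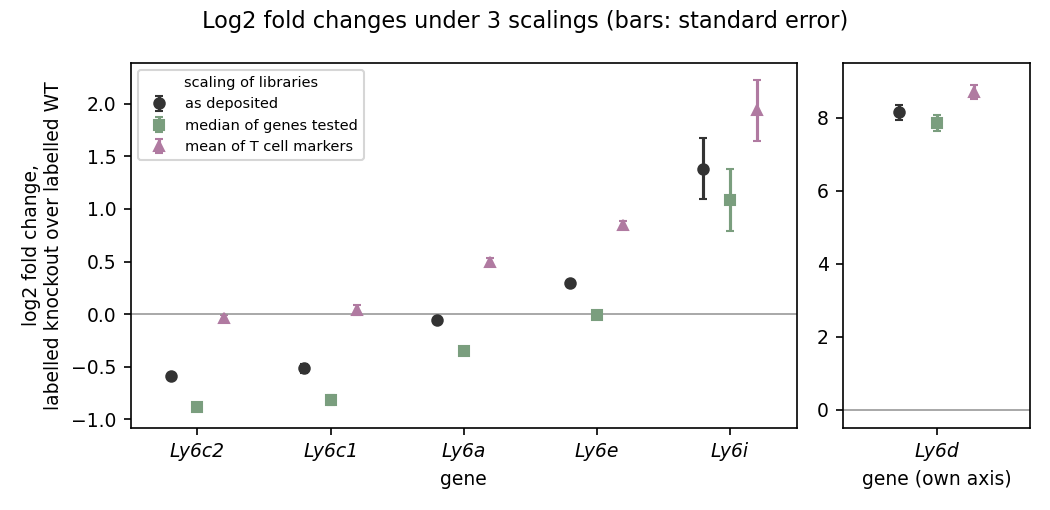
Log2 fold change of the knockout-labelled libraries over those labelled WT for the 6 Ly6 genes under the deposited scaling (circles), median centring (squares) and centring on T cell markers (triangles), with bars for the standard error and a separate axis for Ly6d. Ly6d and Ly6i stay above 1 under each scaling, Ly6c1 and Ly6c2 move from near -0.85 to near 0, and Ly6a and Ly6e change sign between scalings.

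Levels of different genes were compared as RPKM, which scales reads by exon length and library total. Over the union of annotated exons, the order in the WT-labelled libraries was Ly6c2 with 1167 ± 31.2, Ly6a with 652 ± 1.24, Ly6e with 566 ± 15.1, Ly6c1 with 93.5 ± 0.665, Ly6d with 2.53 ± 0.810 and Ly6i with 0.474 ± 0.00565 (SD, n = 2 each). At these lengths each neighbour in that order differed by more than the spread of its pair. In the knockout-labelled libraries, over the same lengths, Ly6c2 stood first with 811 ± 26.2, and Ly6d had moved to the second place with 736 ± 8.90. Ly6e followed with 723 ± 2.39, Ly6a with 656 ± 2.09, Ly6c1 with 68.4 ± 1.89 and Ly6i with 1.33 ± 0.254 (SD, n = 2 each). Ly6d at 743 and 730 and Ly6e at 722 and 725 were close neighbours, apart by about the spread of the Ly6d pair. The order depends on the length used. Over the longest transcript of each gene, Ly6e at 939 stood above Ly6a at 823 in the WT-labelled libraries. In the knockout-labelled libraries Ly6e then came first with 1200, followed by Ly6c2 with 829, Ly6a with 828 and Ly6d with 736. Over the longest protein-coding transcript, an option added after the data were seen, Ly6c2 came first there with 2703, before Ly6e, Ly6a and Ly6d at the values just given.

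The 6 genes together made up 0.630% and 0.627% of all reads in the WT-labelled libraries and 0.646% and 0.636% in the knockout-labelled pair. With so many reads, each share has a 95% Wilson interval of at most 0.00204 percentage points on either side, which covers counting error only. The share was slightly higher in both knockout-labelled libraries. Summed normalized counts were slightly lower there, at 374154 and 368548 against 377861 and 382184 in the WT-labelled libraries. The direction of the total thus depends on the measure, and its shift was small by either, while its makeup changed. Ly6c2 gave 51.7% and 50.1% of the members' reads in the WT-labelled libraries against 35.2% and 34.1%, and Ly6e gave 33.3% and 34.8% against 42.3% and 43.1%. Ly6a kept to 12.5% and 12.6% against 12.3% and 12.4%. Ly6d went from 0.0366% (95% Wilson interval 0.0310% to 0.0433%) and 0.0232% (0.0188% to 0.0287%) to 8.55% (8.46% to 8.64%) and 8.54% (8.45% to 8.63%).

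**Figure D3:**
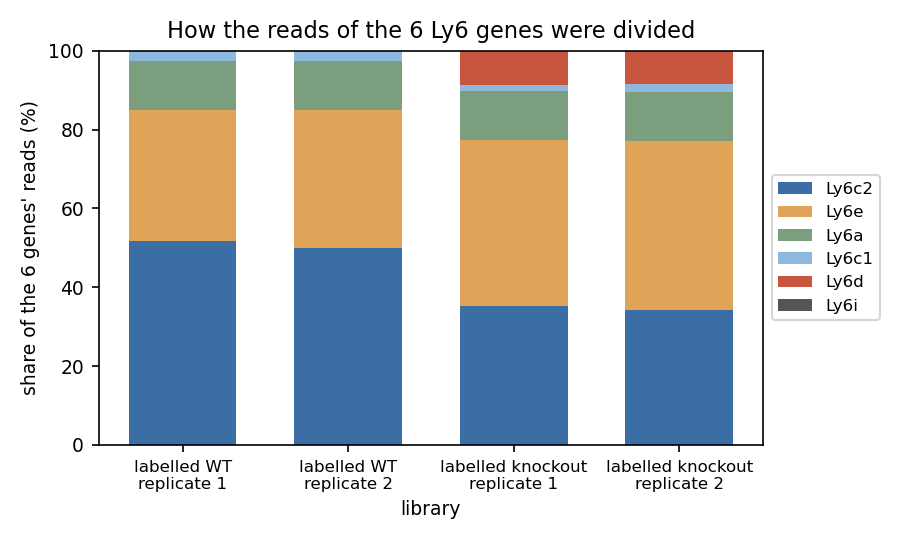
Share of the reads of the 6 Ly6 genes that each gene took in each of the 4 libraries, stacked to 100%. Ly6c2 falls from about 51% to about 35%, and the red band of Ly6d, too thin to see in the WT-labelled libraries, reaches 8.55% and 8.54% in the knockout-labelled pair.

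Along the chromosome, the stretch from 100 kb below Ly6d to 100 kb above Ly6c2 held 29 other genes of the table, of which 13 were tested, 3 were higher and 1 was lower. These counts are near the 19.9% higher and 13.4% lower over all genes. Lynx1, a Ly6-type modulator of nicotinic acetylcholine receptors next to Ly6d, had 43.8 and 43.9 in the WT-labelled libraries against 1481 and 1443. Its log2 fold change was 5.03 (limma adjusted p = 2.68e-06). Ly6k, a Ly6 gene of male germ cells, had 94.6 and 31.7 against 489 and 580 (log2 fold change 3.26, adjusted p = 0.00421 by limma). Them6, a thioesterase family gene, rose from 2794 and 2702 to 4760 and 4980 (log2 fold change 0.83, adjusted p = 8.37e-05 by limma).

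The gene that fell was Ly6a2 (listed as I830127L07Rik, which GENCODE annotates as a transcribed pseudogene), beyond Ly6c2. It went from 17874 and 18251 to 9622 and 10542 and fell by 0.84 on the log2 scale (limma adjusted p = 6.29e-05), more than either Ly6C gene. Ly6a2 holds windows of 50 bases in common with Ly6a and Ly6i, so its reads can be shared with them. Of the other 9 genes tested, Arc, an immediate early gene, had 596 and 778 against 755 and 702 and Jrk had 184 and 154 against 121 and 152. Psca, Slurp1, Ly6m (listed as 2010109I03Rik), Gm17189, Gm8000, Gm37042 and Gm28068 had at most 67.4 in any library. Another 7 genes, Lypd2, Slurp2, Gml and Gml2 among them, had 0 reads in all 4 libraries, which allows up to 3 reads in each. Ly6g, the neutrophil antigen recognised with Ly6C by the Gr-1 antibody, had at most 6.13 in any library.

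**Figure D4:**
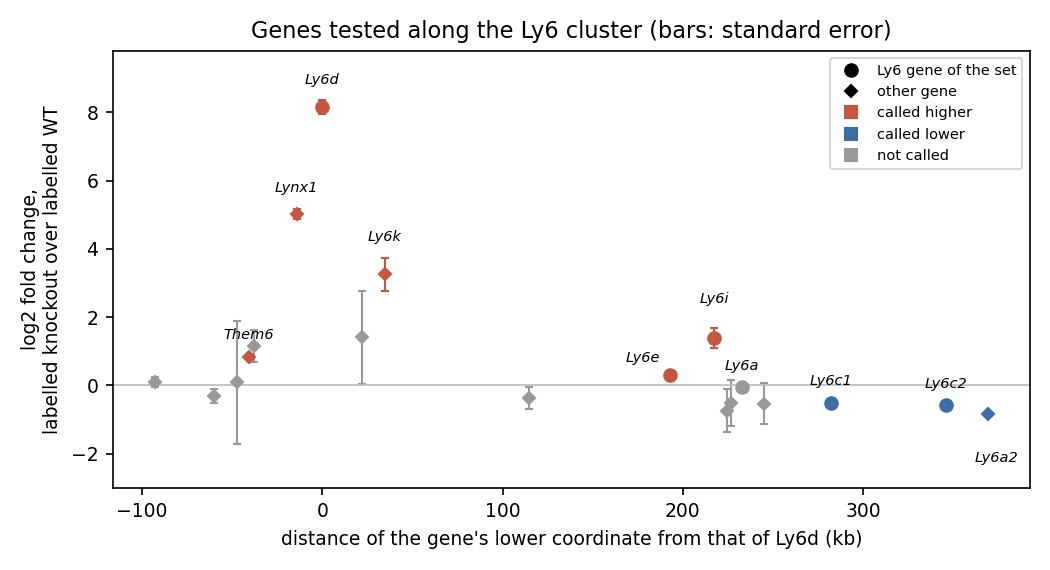
Log2 fold change of each tested gene against the distance of its lower coordinate from that of Ly6d in kb, with circles for the 6 Ly6 genes, diamonds for other genes, red for higher, blue for lower and grey for not called, and bars for the standard error. The genes that rose most (Ly6d, Lynx1 and Ly6k) lie at the left, and Ly6c1, Ly6c2 and Ly6a2, all lower, at the right.

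Among 37 listed relatives with the same fold, 35 were in the table, 16 of these had 0 reads in all 4 libraries and 12 were tested. Of the 12, 4 rose and 3 fell (33.3% and 25%), beside 19.9% and 13.4% over all genes. Their median log2 fold change was 0.18. Plaur, the urokinase receptor that focuses plasminogen activation at the cell surface, had 293 and 263 against 5900 and 5754, with a log2 fold change of 4.39 and a limma adjusted p of 5.82e-07. Cd59a, an inhibitor of complement, had 7.12 and 12.3 against 87.2 and 59.4. Lynx1 and Ly6k, above, were the other relatives that rose. Lypd6b had 389 and 331 against 212 and 147 and fell by 1.02, and Ly6g5b had 209 and 245 against 143 and 134 and fell by 0.70. Ly6a2, above, was the other that fell. Without knockout-labelled replicate 1 or 2, 2 relatives were called higher, and 2 and 1 lower.

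Of 29 genes that make the GPI anchor or attach it, 3 rose and 3 fell by the deposited scaling, 10.3% each way beside 19.9% and 13.4% over all genes, and their median log2 fold change was -0.01. Median centring gave 0 higher and 16 lower, and T cell marker centring 25 higher and 0 lower. Pigt, a subunit of the transamidase that joins anchor and protein, had 7784 and 7390 against 8733 and 9303 and rose by 0.25 (limma adjusted p = 0.0108). Pgap2, which remodels the anchor's lipid, had 2597 and 2739 against 3250 and 3569 and rose by 0.35 (limma adjusted p = 0.00899). Pigx and Pigf, of the mannose and ethanolamine steps, fell by 0.31 and 0.62. The other calls were Pigb, which rose by 0.29, and Pgap1, which fell by 0.72. With either knockout-labelled library left out, 0 of the 29 were called in either direction, while leaving out WT-labelled replicate 1 gave 5 lower.

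Of 14 other GPI-anchored surface proteins 5 rose and 7 fell (35.7% and 50%), beside 19.9% and 13.4% over all genes. Their median was -0.33. Those that fell included Thy1, the Thy-1 antigen of T cells, from 119509 and 113286 to 72456 and 76725 (by 0.64). Cd160, a receptor of cytotoxic lymphocytes, went from 4157 and 4348 to 2686 and 2629 (by 0.68). Those that rose included Bst2, an interferon-inducible tetherin and marker of plasmacytoid dendritic cells, from 7465 and 7833 to 27623 and 27950. Prnp, the prion protein, rose from 194 and 204 to 2055 and 2251. With either knockout-labelled library left out, 3 in place of 7 were called lower.

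Type I interferon-stimulated genes, which the Ly6C genes, Ly6a and Ly6e belong to by their known induction, gave 4 of 29 higher and 17 lower. These are 13.8% and 58.6%, beside 19.9% and 13.4% over all genes, and the median was -0.32. Rtp4 had 2669 and 2843 against 1557 and 1567 and fell by 0.82, and Ifit3 had 5115 and 4628 against 2736 and 2932 and fell by 0.78. Stat2, a signalling factor of the interferon receptor, rose from 1640 and 1574 to 4067 and 3984, and Ifi44 from 38.7 and 27.6 to 387 and 281. The Ly6C genes thus moved the way of most of this list and Ly6e the other way, by the deposited scaling. With T cell marker centring the list had 17 higher and 2 lower. Leaving out knockout-labelled replicate 1 or 2 gave 10 lower, with 3 and 2 higher.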

How the data were processed

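RNA was measured in 4 libraries, grouped by sample titles and genotype labels. The submitters' processing notes name mm10 and, in no stated role, HISAT2 2.2.1, Trim Galore 0.4.4, DESeq2 and StringTie 2.1.4. The sources used here give no annotation, strand use or read length. Values deposited by the authors are normalized counts, a signal that is not whole-numbered, with their own log2 fold change and its error, a Wald score, a p-value and an adjusted p-value. Values were whole multiples of 1 step per library for 100.0% of values (tolerance 0.01 reads), so reads were recovered.

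The main test was limma 3.58.1 (R 4.3.3, robust eBayes with a variance trend) on log2(value + 1), with genes kept at 10 or more in at least 2 libraries. Such fold changes understate low genes. P-values were two-sided, adjusted by Benjamini-Hochberg over all 18378 genes, with a threshold of 0.05. edgeR 4.0.16 and DESeq2 1.42.0 ran on recovered reads as alternatives. Each test was tried on simulated counts with far fewer and smaller changes than these data hold. That trial cannot show how the calls here depend on scaling. Lengths, coordinates and transcripts came from GENCODE M21, alignments from Biopython 1.88, promoters from RefSeq. Protein sequences were not used here.

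The members and all lists were chosen with earlier results of these data known. Besides the members, the genes named are up to 2 in each direction per list with the smallest adjusted p, tested neighbours within 100 kb, and the 3 nearest profiles. Others in short counts were named after their values were seen. Names turned into dates (24 rows) were left unnamed. Libraries of a group differed beyond sampling noise (chi-square per degree of freedom 21.7 and 6.45).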

Additional observations from a re-analysis of the deposited data

How the results depend on the processing

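Ly6d kept its direction and call under all 14 alternatives, with log2 fold changes of 7.83 to 8.70 (adjusted p at most 0.00801), and Ly6i its direction, from 1.08 to 1.94. Scaling decides the small changes. With median centring Ly6a was called at -0.35 and Ly6e turned to -0.0089, and genes called went from 3662 higher and 2469 lower to 2389 and 7210 (24.9% of calls higher in place of 59.7%), with GPI anchor genes at 0 higher and 16 lower. With T cell marker centring Ly6e rose to 0.85, Ly6a turned to 0.50, Ly6c1 to 0.0388, and Ly6c2 was -0.0337 without a call, which left 0 members lower. That setting gave 11727 genes higher and 161 lower (98.6% higher), 1 relative lower, 25 GPI anchor genes higher and 0 lower, 2 other GPI-anchored proteins lower, and 17 interferon-stimulated genes higher and 2 lower. An added log2 threshold of 1 left 1932 genes higher and 161 lower, and 0 members lower.

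Leaving out 1 library at a time gave 1309 to 4137 genes higher and 630 to 2759 lower, with 1 to 3 members higher and 2 lower. Relatives ranged from 2 to 4 higher and 1 to 3 lower, anchor genes from 0 to 3 and 0 to 5, other GPI-anchored proteins from 4 to 5 and 3 to 7, interferon-stimulated genes from 2 to 5 and 10 to 17. Member values ranged from -0.07 to -0.04 (Ly6a), -0.54 to -0.49 (Ly6c1), -0.62 to -0.55 (Ly6c2), 7.83 to 8.46 (Ly6d), 0.25 to 0.33 (Ly6e) and 1.19 to 1.58 (Ly6i). The calls of Ly6e and Ly6i were lost without knockout-labelled replicate 1 or 2, which also gave the lowest counts over all genes. Each of these fits leaves 1 library in that group, so the spread came from the WT-labelled pair alone. Whether this alone lost the calls was not tested. Libraries share only a number across groups (correlation of deviations 0.0172), and a replicate block gave adjusted p-values of 0.0248 for Ly6i and 0.00206 for Ly6e and changed no member's call. The pseudocounts, filters, robust setting, edgeR and DESeq2 changed no member's call. Depth limits Ly6i and the low pair of Ly6d. Level per kb over the longest transcript was 825 for Ly6a, 161 for Ly6c1 and 1070 for Ly6e, in place of 654, 80.9 and 645, and over the longest protein-coding transcript 3297 in place of 989 for Ly6c2.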
